A study of Mus musculus with 12 samples.

Results

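Limb muscle progenitors were followed in mouse forelimb buds through 9 genes: Pax3, Pax7, Lbx1, Met, Myf5, Myod1, Myog, Eya1 and Hgf. The genes were chosen by name for their known roles in this lineage, but with earlier results of these data known. All 9 were found by symbol among the 53465 genes of the deposited tables. In buds labelled Tbx3_del and in Hand2_del buds, the progenitor genes Pax3, Lbx1, Met and Eya1 and the ligand gene Hgf stayed within 1.26-fold of their wild-type means. The low-level muscle determination and differentiation genes Myf5, Myod1 and Myog had higher means in both mutants than in wild type. In the main edgeR test with all libraries no member was called in either comparison, against 1.01% of all genes tested for Tbx3_del and 10.5% for Hand2_del. DESeq2 called Pax3, Met and Eya1 in the Hand2 series, against 22.6% of all genes. It called Myog in the Tbx3 series, against 3.64%, and some other settings also called members. For Myf5, Myod1 and Myog 1 wild-type library decided how far apart the groups of the Hand2 series were.

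Limb muscle does not arise in the bud itself. Cells of the lateral dermomyotome, the epithelial part of the somite, express the transcription factor PAX3, which activates the receptor gene Met. HGF, secreted by limb mesenchyme, binds MET, and the cells leave the somite and migrate into the bud. LBX1 acts in the migrating cells, and EYA1 is a transcriptional cofactor upstream of Pax3 and the muscle determination genes. In the bud, MYF5 and MYOD1 commit cells to the muscle fate and MYOG drives their differentiation. PAX7 is best known as the factor of later progenitors and of satellite cells, the muscle stem cells.

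RNA was sequenced from 12 libraries, each from 1 pair of forelimb buds of a Swiss albino embryo, 3 in each of 4 groups. The Tbx3_del group carried the Tbx3 ΔVenus allele on both copies, in which a Venus reporter and a stop of transcription stand at the start codon, and its Tbx3_WT group was wild type, both at E9.75 to E10 (28 to 31 somites). The Hand2_del group carried Prrx1-Cre with Hand2 Δ/Δc, which the labels call Hand2-deficient, and its Hand2_WT group carried Prrx1-Cre with 2 wild-type Hand2 copies, both at E10 to E10.25 (31 to 33 somites). Prrx1-Cre acts in limb mesenchyme, the tissue that surrounds muscle progenitors, and not in the progenitors themselves. Levels are in CPM, the deposited expected counts scaled to 1e6 per library with TMM factors over all 12 libraries. Differences are log2 fold changes of mutant over wild type with their standard error (SE), tested with edgeR's quasi-likelihood F test. P-values were adjusted over all genes tested, and called genes are those with an adjusted p below 0.05.

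Total counts ran from 24.2 to 31.8 M (units of 1e6) in Tbx3_del and from 23.3 to 25.8 M in Tbx3_WT libraries, and from 60.2 to 65.7 M in Hand2_del and 64.4 to 68.6 M in Hand2_WT libraries. Hand2 averaged 0.923 CPM in Hand2_del buds against 121 CPM in Hand2_WT buds (adjusted p = 0.00164). Tbx3 RNA did not mark its mutant group: it averaged 78.1 ± 3.88 CPM in the libraries labelled Tbx3_del and 78.6 ± 0.569 CPM in Tbx3_WT libraries (SD, n = 3 each), with an adjusted p of 0.954. The level was thus not lower in the group whose allele is described with a stop of transcription at the start codon. Whether the libraries are labelled rightly was not tested. An expected count sums reads over all exons and does not show whether a protein can be made, so every direction given for the Tbx3 series rests on the label. By Xist and Y-linked genes, 1 of 3 Tbx3_del embryos was female against 3 of 3 Tbx3_WT embryos, and 1 of 3 Hand2_del embryos against 2 of 3 Hand2_WT embryos. In whole buds, fewer cells of a type and less RNA per cell cannot be told apart.

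Per kilobase of merged exons, Lbx1 had the highest mean level over the 12 libraries, 19.4 CPM per kb, and Met followed with 6.5. Pax3 had 4.35, Hgf 4.07 and Eya1 3.35 CPM per kb. The later genes were lower, with 1.72 CPM per kb for Myog, 0.632 for Myf5, 0.261 for Myod1 and 0.254 for Pax7. Myog ran from 0.324 CPM per kb in Tbx3_WT to 3.15 in Hand2_del buds, where Hgf had 3.91, so its place in this order depends on the group. In each of the 4 groups the means of Myf5, Myod1 and Pax7 per kb were below those of Pax3, Lbx1, Met, Eya1 and Hgf. Over the 12 libraries the highest value exceeded the lowest by 1.36-fold for Pax3, 1.56-fold for Eya1, 1.62-fold for Met, 1.65-fold for Hgf and 1.73-fold for Lbx1. The same ratio was 5.92 for Myf5, 7.07 for Pax7 and 213 for Myog, and Myod1 was at 0 counts in 1 Hand2_WT library.

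**Figure D1:**
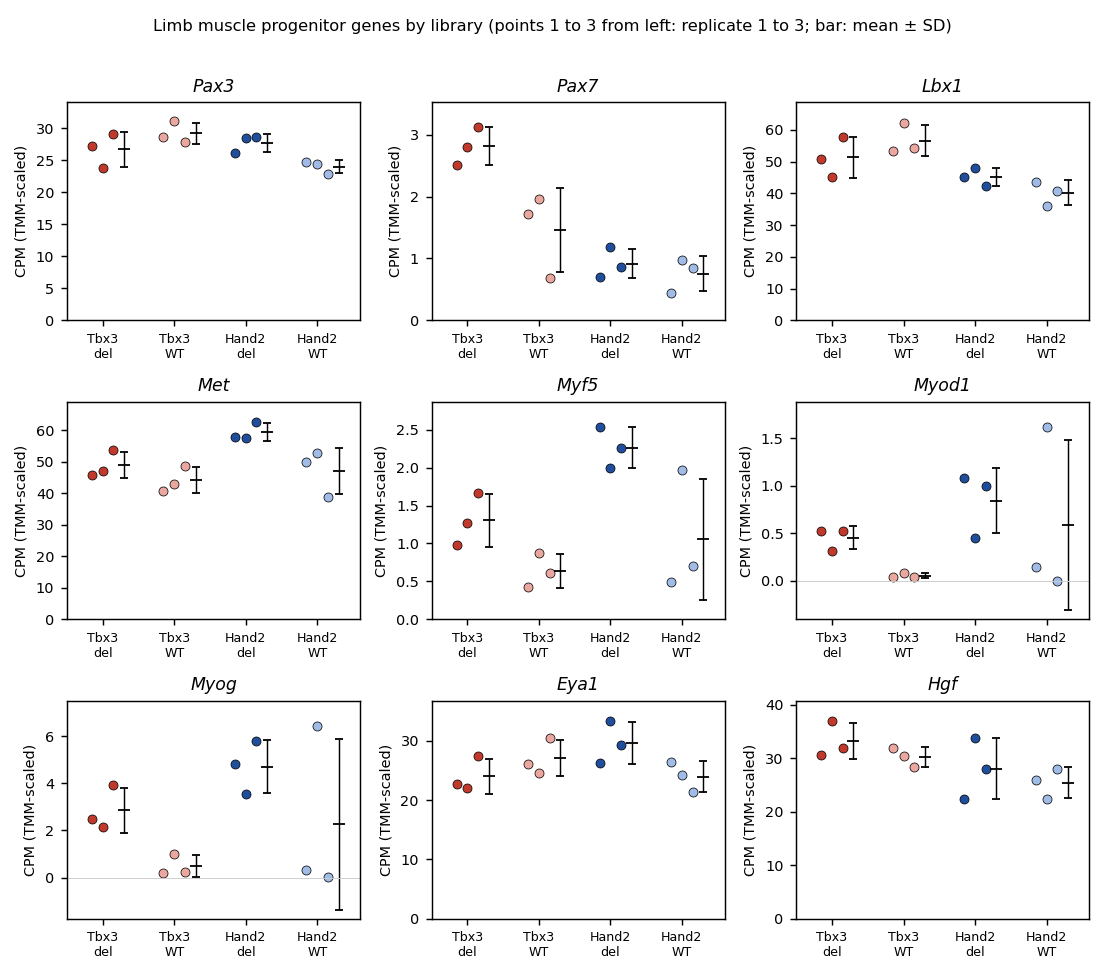
Level of each of the 9 genes in CPM (vertical axis, linear) in the 12 libraries of 4 groups, with the mean and SD of 3 libraries beside the points. Pax3, Lbx1, Met, Eya1 and Hgf stay in a narrow band, while Myf5, Myod1 and Myog of Hand2_WT replicate 2 stand at 1.97, 1.62 and 6.42 CPM, far above the other 2 Hand2_WT libraries.

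Pax3 (ENSMUSG00000004872, GRCm38, chr1:78101267-78197134, minus strand) had 27.2, 23.8 and 29.1 CPM in Tbx3_del libraries, against 28.7, 31.1 and 27.9 CPM in Tbx3_WT libraries. The 2 groups overlapped, and the log2 fold change was -0.13 (SE 0.0849, 95% interval -0.33 to 0.07, adjusted p = 0.541). In the Hand2 series Pax3 had 26.1, 28.5 and 28.6 CPM in Hand2_del libraries, against 24.8, 24.4 and 22.8 CPM in Hand2_WT libraries. Every Hand2_del library was above every Hand2_WT library, by a small step of 0.21 (SE 0.0617, 95% interval 0.06 to 0.35), which did not pass the test (adjusted p = 0.0723).

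Lbx1 (ENSMUSG00000025216, chr19:45232684-45235812, minus strand), a homeobox gene that migrating limb progenitors need, had 50.9, 45.1 and 57.8 CPM in Tbx3_del libraries, against 53.3, 62.2 and 54.2 CPM in Tbx3_WT libraries. It had 45.2, 48.0 and 42.3 CPM in Hand2_del libraries, against 43.7, 35.9 and 40.8 CPM in Hand2_WT libraries. Groups overlapped in both series, and the log2 fold change was -0.14 (SE 0.0986, 95% interval -0.37 to 0.09, adjusted p = 0.566) for Tbx3_del and 0.17 (SE 0.0808, 95% interval -0.02 to 0.36, adjusted p = 0.193) for Hand2_del.

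Eya1 (ENSMUSG00000025932, chr1:14168954-14310235, minus strand) had 22.7, 22.0 and 27.4 CPM in Tbx3_del libraries, against 26.1, 24.6 and 30.5 CPM in Tbx3_WT libraries. It had 26.3, 33.4 and 29.3 CPM in Hand2_del libraries, against 26.4, 24.2 and 21.3 CPM in Hand2_WT libraries. The groups overlapped in both series, in the Hand2 series by 1 library only. Its log2 fold change was -0.17 (SE 0.114, adjusted p = 0.542) for Tbx3_del and 0.31 (SE 0.109, adjusted p = 0.107) for Hand2_del. EYA1 also acts outside the muscle lineage, so its bulk level is not that of progenitors alone.

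Pax7 (ENSMUSG00000028736, chr4:139737062-139833528, minus strand) had 62, 88 and 84 counts in Tbx3_del libraries, against 40, 45 and 18 counts in Tbx3_WT libraries. In CPM these were 2.52, 2.80 and 3.13 in Tbx3_del and 1.72, 1.97 and 0.69 in Tbx3_WT libraries. The groups did not overlap, with a log2 fold change of 0.96 (SE 0.349, 95% interval 0.15 to 1.77) that missed the threshold (adjusted p = 0.267). In the older Hand2 series Pax7 averaged 0.919 ± 0.242 CPM in Hand2_del and 0.756 ± 0.281 CPM in Hand2_WT libraries (SD, n = 3 each; log2 fold change 0.28, SE 0.338, adjusted p = 0.597).

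Met (ENSMUSG00000009376, chr6:17463800-17573980, plus strand), the receptor of HGF, had 45.9, 47.2 and 53.7 CPM in Tbx3_del libraries, against 40.9, 43.1 and 48.8 CPM in Tbx3_WT libraries. It had 58.0, 57.6 and 62.8 CPM in Hand2_del libraries, against 49.9, 52.8 and 38.8 CPM in Hand2_WT libraries. The 3 Hand2_del libraries lay above all others of the 12. The log2 fold change was 0.14 (SE 0.0872, 95% interval -0.06 to 0.35, adjusted p = 0.505) for Tbx3_del and 0.33 (SE 0.109, 95% interval 0.08 to 0.59, adjusted p = 0.0891) for Hand2_del.

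Hgf (ENSMUSG00000028864, chr5:16553495-16620152, plus strand), made by the mesenchyme and not by the progenitors, had 30.6, 37.0 and 32.0 CPM in Tbx3_del libraries, against 31.9, 30.5 and 28.3 CPM in Tbx3_WT libraries. It had 22.4, 33.8 and 28.1 CPM in Hand2_del libraries, against 26.0, 22.4 and 28.0 CPM in Hand2_WT libraries. Both pairs of groups overlapped. The log2 fold change was 0.14 in each series (SE 0.0816 and adjusted p = 0.505 for Tbx3_del, SE 0.152 and adjusted p = 0.548 for Hand2_del). Of the 85-base words of its transcripts, 5.51% also occur in the overlapping gene Gm43489, and its expected count was not whole in 11 of 12 libraries. The other 8 members shared no such word with another gene.

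The 200 bases before the RefSeq start of Myog and of Myf5 are shown because these genes stand apart in the levels and because muscle determination factors are known to act on Myog through E-boxes, the 6-letter motif CANNTG. Capitals mark E-boxes, whose pattern reads the same on both strands. The windows are from RefSeq on GRCm38.p6, chr1:134289804-134290003 on the plus strand for Myog and chr10:107486135-107486334 on the minus strand for Myf5, each written 5′ to 3′ in the direction of the gene.
Myog: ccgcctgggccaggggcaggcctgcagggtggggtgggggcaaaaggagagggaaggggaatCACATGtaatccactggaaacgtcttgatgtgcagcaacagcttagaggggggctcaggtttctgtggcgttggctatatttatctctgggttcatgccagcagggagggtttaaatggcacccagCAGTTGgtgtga
Myf5: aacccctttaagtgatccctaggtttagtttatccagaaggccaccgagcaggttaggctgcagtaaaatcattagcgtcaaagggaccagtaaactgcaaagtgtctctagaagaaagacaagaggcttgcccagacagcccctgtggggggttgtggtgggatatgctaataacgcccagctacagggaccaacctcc
The Myog window holds CACATG starting at base -138 and CAGTTG at base -12, counted back from the base before the start. The Myf5 window holds no E-box in its 200 bases. Among 32851 promoter windows of that length, 58.2% held at least 1 E-box and 23.4% held at least 2. Of the other members, Pax7 had no E-box in its window, Met had 1, and Hgf had 2 in 1 of its 2 windows and none in the other. The 5 genes named were those matched of the 9, and Pax3, Lbx1, Myod1 and Eya1 were not.

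Myf5 (ENSMUSG00000000435, chr10:107482908-107486134, minus strand), the first determination gene to be switched on in mouse muscle, had 24, 40 and 45 counts in Tbx3_del libraries, against 10, 20 and 16 counts in Tbx3_WT libraries. In CPM it had 0.977, 1.27 and 1.67 in Tbx3_del and 0.43, 0.875 and 0.614 in Tbx3_WT libraries. Each Tbx3_del library was above each Tbx3_WT library, and the log2 fold change was 1.03 (SE 0.349, 95% interval 0.22 to 1.84) and did not pass the test (adjusted p = 0.235).

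Myod1 (ENSMUSG00000009471, chr7:46376474-46379099, plus strand), the other determination gene, was barely present in the Tbx3 series, with 13, 10 and 14 counts in Tbx3_del libraries, against 1, 2 and 1 counts in Tbx3_WT libraries. The groups did not overlap. Summed over 3 libraries there were 37 counts in Tbx3_del against 4 in Tbx3_WT, a ratio per total count of 8.07 with an exact binomial 95% interval of 2.9 to 31.2, which covers counting error only. The gene lay under the low-count filter and was not tested in that fit. With no filter its log2 fold change was 2.93 (adjusted p = 0.0337), and in the 4-group fit it was 2.97 (adjusted p = 0.384).

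Myog (ENSMUSG00000026459, chr1:134289989-134292548, plus strand) had 61, 68 and 106 counts in Tbx3_del libraries, against 5, 23 and 6 counts in Tbx3_WT libraries. In CPM it had 2.48, 2.16 and 3.94 in Tbx3_del and 0.215, 1.01 and 0.23 in Tbx3_WT libraries. The lowest Tbx3_del library was above the highest Tbx3_WT library. The log2 fold change of 2.57 (SE 0.551) was the largest of the 8 members tested and had an adjusted p of 0.0911. Without Tbx3_WT replicate 2, the wild-type library with the most Myog, it was 3.65 with an adjusted p of 0.049, and without each of the other 5 libraries it was 2.23 to 2.75 with an adjusted p of 0.124 to 0.219. The 4-group fit gave an adjusted p of 0.35, and DESeq2 gave an adjusted p of 0.00026 with all 6 libraries. With no low-count filter edgeR gave 2.58 with an adjusted p of 0.00441.

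In the Tbx3 series, then, 0 of 8 members tested were called by edgeR, against 1.01% of the 15130 genes tested. At an unadjusted p under 0.05 there were 3, Pax7, Myf5 and Myog, against 14.3% of all genes, and DESeq2 called 1, Myog, against 3.64%. Those 3 genes and the untested Myod1 were higher in Tbx3_del libraries without overlap, 3 of 8 members tested, against 10.5% of all genes tested. No member was lower without overlap, as 9.91% of all genes were. Myog had 5, 23 and 6 counts in Tbx3_WT libraries and passed the low-count filter through its Tbx3_del libraries. Its place in these tallies therefore rests on the group where it is high. The median log2 fold change of the 8 members was 0.14, against -0.0 over all genes tested. Embryo sex differs between these groups as given above, and with sex in the model Myog had a log2 fold change of 3.04 with an adjusted p of 0.238.

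**Figure D2:**
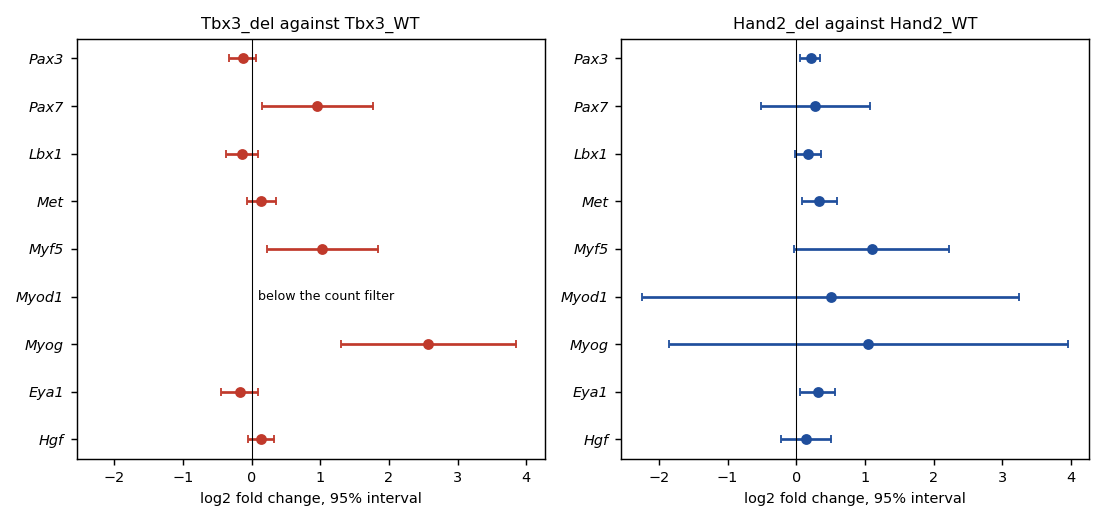
Log2 fold change of each gene with its 95% interval (horizontal axis), Tbx3_del over Tbx3_WT on the left and Hand2_del over Hand2_WT on the right. Pax3, Lbx1, Met, Eya1 and Hgf lie within 0.33 of 0 with narrow intervals, and Myog lies at 2.57 on the left. On the right the interval of Myog runs from -1.85 to 3.96 and that of Myod1 from -2.24 to 3.25.

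In the Hand2 series the determination genes split the wild-type group. Myog had 285, 233 and 394 counts in Hand2_del libraries, against 20, 444 and 2 counts in Hand2_WT libraries. In CPM it had 4.80, 3.54 and 5.79 in Hand2_del and 0.316, 6.42 and 0.0301 in Hand2_WT libraries. Hand2_WT replicate 2 was thus higher than any Hand2_del library and the other 2 Hand2_WT libraries were lower than any. With a coefficient of variation of 160% in Hand2_WT, the log2 fold change of 1.05 (SE 1.23, 95% interval -1.85 to 3.96) had an adjusted p of 0.584.

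Myod1 showed the same split, with 64, 30 and 68 counts in Hand2_del libraries, against 9, 112 and 0 counts in Hand2_WT libraries. The log2 fold change was 0.51 (SE 1.16, 95% interval -2.24 to 3.25, adjusted p = 0.792), too wide to give a direction, and it was -0.07 without Hand2_WT replicate 3. Myf5 had 151, 131 and 154 counts in Hand2_del libraries, against 31, 136 and 47 counts in Hand2_WT libraries. In CPM it had 2.54, 1.99 and 2.26 in Hand2_del and 0.489, 1.97 and 0.707 in Hand2_WT libraries. These groups just did not overlap, since the 1.97 CPM of Hand2_WT replicate 2 nearly reached the lowest Hand2_del library, and the log2 fold change was 1.10 (SE 0.476, adjusted p = 0.162).

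Without Hand2_WT replicate 2, the log2 difference was 4.77 for Myog (SE 0.697, adjusted p = 0.0188) and 1.91 for Myf5 (SE 0.24, adjusted p = 0.015), both past the threshold, and Myod1 had 3.56 (adjusted p = 0.0615). Leaving out any of the other 5 libraries gave 0.48 to 1.22 for Myog and 0.75 to 1.18 for Myf5, none of them called. Without that library 12.4% of all genes tested were called. In the other 2 Hand2_WT libraries Myog had 20 and 2 counts and Myod1 had 9 and 0. With or without replicate 2, Myog and Myod1 passed the low-count filter through the Hand2_del libraries. Their values here therefore rest on the group where they are high. A comparison with 2 wild-type libraries has fewer to set the spread, and nothing in the labels marks Hand2_WT replicate 2 as different.

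**Figure D3:**
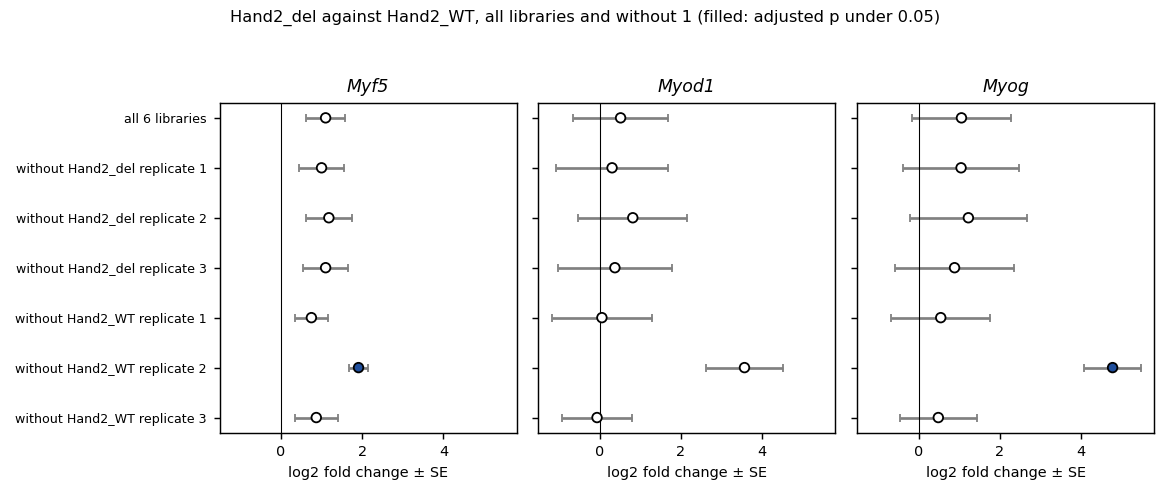
Log2 fold change of Hand2_del over Hand2_WT with its SE (horizontal axis) for Myf5, Myod1 and Myog with all 6 libraries and with each left out in turn (rows), filled where the adjusted p was under 0.05. Without Hand2_WT replicate 2 the values are 1.91, 3.56 and 4.77, and those of Myf5 and Myog are called.

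With all libraries, 0 of 9 members were called by edgeR in the Hand2 series, against 10.5% of the 17488 genes tested. At an unadjusted p under 0.05 there were 3, Pax3, Met and Eya1, 3 of 9 against 32.4% of all genes. DESeq2 called these 3, with adjusted p of 0.0319, 0.0181 and 0.0405, against 22.6% of all genes. With sex in the model edgeR called Eya1 (0.39, adjusted p = 0.0473). Pax3, Met and Myf5 were higher without overlap, 3 of 9, against 18.8% of all genes tested, and none was lower without overlap, against 19.2%. The median log2 fold change of the 9 members was 0.31, against 0.01 over all genes tested.

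The difference between both effects, Hand2 minus Tbx3, was tested in 1 fit of all 12 libraries, and 0 of 9 members were called by edgeR or by DESeq2, against 1.68% of the 17360 genes tested with edgeR and 5.62% with DESeq2. At an unadjusted p under 0.05 there were 3 of 9, against 17.4% of all genes: Pax3 with a difference of 0.34 (SE 0.108, adjusted p = 0.147), Eya1 with 0.48 (SE 0.17, adjusted p = 0.187) and Lbx1 with 0.31 (SE 0.139, adjusted p = 0.277). For these 3 the fold change was above 0 in the Hand2 series and below 0 in the Tbx3 series, but with sex in the model Pax3, Lbx1 and Eya1 had -0.01, 0.03 and 0.02 in the Tbx3 series. For Myog the difference was -1.52 with a 95% interval of -5.20 to 2.15, which leaves its sign undetermined. Stage, Cre, depth and the kind of allele differ together between the series and cannot be told apart.

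The summed level of Pax3, Lbx1 and Met was 124, 116 and 141 CPM in Tbx3_del libraries, against 123, 136 and 131 CPM in Tbx3_WT libraries. It was 129, 134 and 134 CPM in Hand2_del libraries, against 118, 113 and 102 CPM in Hand2_WT libraries. The summed level of Myf5, Myod1 and Myog was 3.99, 3.75 and 6.14 CPM in Tbx3_del libraries, against 0.688, 1.97 and 0.882 CPM in Tbx3_WT libraries. It was 8.42, 5.98 and 9.06 CPM in Hand2_del libraries, against 0.947, 10.0 and 0.737 CPM in Hand2_WT libraries. Hand2_WT replicate 2, the highest of all 12 in the second sum, was not high in the first, where its 113 CPM lay between the other Hand2_WT libraries.

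**Figure D4:**
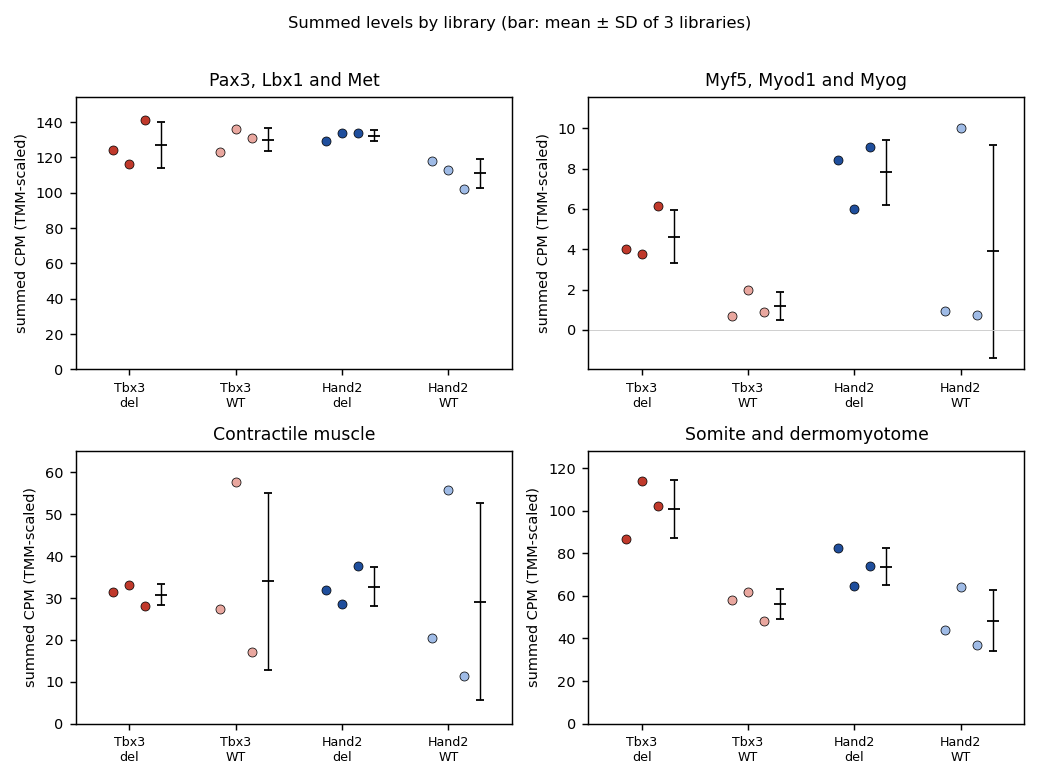
Summed CPM (vertical axis, linear) of 2 sets of members and of the contractile and somite marker lists in the 12 libraries, with mean and SD of 3 libraries. Replicate 2 of each wild-type group has the highest contractile sum of its series, 57.7 CPM in Tbx3_WT and 55.7 CPM in Hand2_WT.

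Markers of differentiated muscle and of somite were measured in the same libraries. The 17 contractile genes summed to 31.4, 33.0 and 28.0 CPM in Tbx3_del libraries, against 27.3, 57.7 and 17.0 CPM in Tbx3_WT libraries. They summed to 32.0, 28.5 and 37.7 CPM in Hand2_del libraries, against 20.5, 55.7 and 11.3 CPM in Hand2_WT libraries. Des alone made up 19.1 of the 27.3 CPM in Tbx3_WT replicate 1 and 14.7 of the 33.0 CPM in Tbx3_del replicate 2. The sum therefore does not follow all of its genes alike. Actc1, the cardiac alpha-actin that embryonic skeletal muscle also makes, had 93, 77 and 146 counts in Tbx3_del libraries, against 18, 214 and 18 in Tbx3_WT libraries, and 329, 238 and 336 counts in Hand2_del libraries, against 39, 711 and 14 in Hand2_WT libraries. Of the contractile list, 0 of 10 members tested were called for Tbx3_del (median log2 fold change -0.17), against 1.01% of all genes tested. For Hand2_del it was 1 of 17 (median 0.30), against 10.5% of all genes tested. That 1, the acetylcholine receptor gene Chrna1, fell to 0.745 CPM in Hand2_del buds, against 1.45 CPM in Hand2_WT buds (log2 fold change -0.97, adjusted p = 0.0491). The call was lost without any 1 of the 6 libraries and with sex in the model. Chrna1 was also lower without overlap in Tbx3_del, at 0.998 CPM against 1.82 CPM in Tbx3_WT (log2 fold change -0.87, adjusted p = 0.152). In both wild-type groups the library highest in contractile genes, replicate 2, was also the one highest in Myog, with 6.42 CPM in Hand2_WT and 1.01 CPM in Tbx3_WT.

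The somite and dermomyotome genes summed to 86.9, 114 and 102 CPM in Tbx3_del libraries, against 58.2, 62.0 and 48.4 CPM in Tbx3_WT libraries, and to 82.3, 64.8 and 74.0 CPM in Hand2_del libraries, against 44.1, 64.3 and 36.7 CPM in Hand2_WT libraries. In both series every mutant library had the higher sum. For Hand2_del this rested on Pax1, a gene of the sclerotome, the part of the somite that forms vertebrae, which was set apart after its values were seen. Pax1 had 36.2, 8.79 and 16.3 CPM in Hand2_del libraries, against 1.12, 10.5 and 4.57 CPM in Hand2_WT libraries (log2 fold change 1.92, adjusted p = 0.145). Without Pax1 the sum was 46.1, 56.0 and 57.7 CPM in Hand2_del libraries, against 43.0, 53.8 and 32.1 CPM in Hand2_WT libraries, which overlap, while in the Tbx3 series the lowest Tbx3_del library, at 83.6 CPM, stayed above the highest Tbx3_WT library, at 61.4 CPM. Of 7 members tested, 0 were called in either series, against 1.01% of all genes called for Tbx3_del and 10.5% for Hand2_del. The median log2 fold change was 1.01 for Tbx3_del and 0.62 for Hand2_del. For Tbx3_del, 6 of the 7 were higher without overlap, as were 10.5% of all genes tested. For Hand2_del it was 1 of 7, Dmrt2, against 18.8%. Meox1, a homeobox gene of the somite, averaged 35.5 CPM in Tbx3_del and 20.5 CPM in Tbx3_WT libraries (log2 fold change 0.80, adjusted p = 0.0512), and Tcf15, which keeps the somite epithelial, 27.8 and 21.2 CPM (0.40, adjusted p = 0.192). Sim1, a marker of the lateral dermomyotome, averaged 7.39 CPM in Tbx3_del and 2.32 CPM in Tbx3_WT libraries (log2 fold change 1.68, adjusted p = 0.128). Dmrt2, a dermomyotome factor known to act on Myf5, had 294, 233 and 318 counts in Tbx3_del libraries, against 15, 119 and 28 in Tbx3_WT libraries (log2 fold change 2.18, adjusted p = 0.185). It had 227, 224 and 256 counts in Hand2_del libraries, against 42, 190 and 71 in Hand2_WT libraries (1.29, adjusted p = 0.11). In the Tbx3 series, then, 6 of the 7 somite genes tested lay higher in the same libraries as Myf5, Myod1 and Myog, and in the Hand2 series Dmrt2 did so. Pax1 did not in the Tbx3 series (log2 fold change -0.08, adjusted p = 0.974). The part of the somite genes in the results for Myf5, Myod1 and Myog was not tested.

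Markers of other tissues were measured as well. Of all genes tested, 1.01% were called for Tbx3_del and 10.5% for Hand2_del. The neural crest and neural tube genes summed to 70.7 to 95.2 CPM in Tbx3_del and 58.8 to 65.9 CPM in Tbx3_WT libraries, and to 52.6 to 59.9 CPM in Hand2_del and 42.3 to 55.6 CPM in Hand2_WT libraries, with 0 called in either series. The higher sum of every Tbx3_del library rested on Ngfr, a neurotrophin receptor gene set apart after its values were seen, at 46.6, 74.1 and 65.2 CPM in Tbx3_del libraries, against 39.8, 41.7 and 31.1 CPM in Tbx3_WT libraries (log2 fold change 0.73, adjusted p = 0.112). Without it the sum was 21.1 to 25.5 CPM in Tbx3_del and 20.9 to 27.7 CPM in Tbx3_WT libraries. Epithelial genes summed to 261 to 279 CPM in Tbx3_del and 261 to 281 CPM in Tbx3_WT libraries, and to 225 to 249 CPM in Hand2_del and 257 to 294 CPM in Hand2_WT libraries. Fgf8, the apical ridge signal, was called lower in Hand2_del (-0.75, adjusted p = 0.0144). The limb mesenchyme markers that define the tissue were abundant, summing to 1300 to 1450 CPM in Tbx3_del and 1550 to 1620 CPM in Tbx3_WT libraries, and to 1570 to 1850 CPM in Hand2_del and 1430 to 1590 CPM in Hand2_WT libraries. Among them Tbx5, the forelimb factor, was called lower in libraries labelled Tbx3_del (62.6 CPM, against 90.6 CPM in Tbx3_WT, log2 fold change -0.53, adjusted p = 0.0397), a call lost in 5 of 6 fits that left out 1 library. In Hand2_del buds Prrx2 (0.53, adjusted p = 0.021) and Twist1 (0.25, adjusted p = 0.0491) rose and Fgf10 fell (-0.61, adjusted p = 0.0387). The 4 endothelial genes summed to 212 to 245 CPM in Tbx3_del and 213 to 238 CPM in Tbx3_WT libraries, and to 236 to 260 CPM in Hand2_del and 218 to 219 CPM in Hand2_WT libraries. Of these Cdh5 was called higher in Hand2_del (0.16, adjusted p = 0.0439) and none for Tbx3_del. The 4 cardiac genes summed to at most 2.54 CPM in any library, 0 of those tested were called, and Nkx2-5 was at 0 counts in all 6 libraries of the Hand2 series. Of these calls, those of Twist1 and Cdh5 were lost without any 1 of the 6 libraries, and those of Fgf8, Prrx2 and Fgf10 in 1, 3 and 4 of the 6 such fits. With sex in the model the calls of Tbx5, Fgf10, Twist1 and Cdh5 were lost.

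Among 20 other regulators of limb myogenesis, 0 of 17 tested were called for Tbx3_del, against 1.01% of all genes, with a median log2 fold change of -0.08. Six4, with whose protein EYA factors act, had a log2 fold change of -0.26 (adjusted p = 0.11), Six5 had 0.08 (adjusted p = 0.758) and Eya2 -0.12 (adjusted p = 0.731). For Hand2_del, 1 of 18 tested was called, against 10.5% of all genes, with a median of 0.38. Dach1, a cofactor in a network with Pax and Eya genes that is also a gene of limb mesenchyme, rose to 119, 116 and 117 CPM in Hand2_del libraries, against 87.9, 88.9 and 89.6 CPM in Hand2_WT libraries (log2 fold change 0.40, SE 0.03, adjusted p = 0.00145). Its groups were far apart and it stayed called without any 1 of the 6 libraries. In the same comparison Six4 had -0.11 (adjusted p = 0.131), Six5 0.27 (adjusted p = 0.195) and Eya2 -0.06 (adjusted p = 0.859). Dach1 was also higher without overlap in Tbx3_del, at 93.6 CPM against 80.9 CPM in Tbx3_WT (log2 fold change 0.21, adjusted p = 0.211). Its difference of Hand2 minus Tbx3 effect was 0.20 (adjusted p = 0.223).

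The 12 genes of HGF activation and signalling gave 0 calls of 11 tested for Tbx3_del (median log2 fold change -0.0) and 1 of 12 for Hand2_del (median -0.09). Of all genes tested, 1.01% and 10.5% were called in the same order. The called gene was Sos1, the RAS activator downstream of MET, at 74.3 CPM in Hand2_del against 85.5 CPM in Hand2_WT buds (-0.20, adjusted p = 0.0391), a call lost in 5 of 6 fits that left out 1 library. Of the proteases that activate HGF, Hpn had log2 fold changes of -0.12 for Hand2_del and -0.0 for Tbx3_del, and St14 had -0.10 and -0.05 in the same order, none called. Spint1, an inhibitor of these proteases, had -0.07 for Hand2_del and 0.02 for Tbx3_del. Hgfac, another activator, had at most 17 counts in any library.

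Between both wild-type groups, edgeR called 1 member, Lbx1. It averaged 40.1 ± 3.98 CPM in Hand2_WT and 56.6 ± 4.87 CPM in Tbx3_WT buds (SD, n = 3 each), a log2 fold change of Hand2_WT over Tbx3_WT of -0.50 (SE 0.0988, 95% interval -0.71 to -0.28, adjusted p = 0.0321). That is 1 of 9 members against 2.07% of all genes tested. DESeq2 called 2, Lbx1 and Pax3, against 8.64% of all genes, and at an unadjusted p under 0.05 there were 4, with Pax7 and Myod1, against 18.7%. With sex in the model, and in a fit of the 6 wild-type libraries alone, 0 members were called, and Lbx1 had adjusted p of 0.0698 and 0.06. The call was lost without Hand2_WT replicate 2 or 3 and without Tbx3_WT replicate 1 or 2, with log2 fold changes between -0.57 and -0.43 in these and the other such fits. Pax3 was lower in the same direction (-0.28, adjusted p = 0.0775), and Pax3, Lbx1 and Hgf were lower without overlap, 3 of 9, against 11.1% of all genes tested. None was higher without overlap, against 12.6%. Met (0.09, adjusted p = 0.706) and Eya1 (-0.18, adjusted p = 0.472) did not pass the test, nor did Myf5 (0.73, adjusted p = 0.458), Myod1 (3.35, adjusted p = 0.261) and Myog (2.24, adjusted p = 0.387), all 3 of which rest on Hand2_WT replicate 2: without it they were -0.10, 0.31 and -1.47. The Hand2_WT embryos are older, carry Prrx1-Cre and were sequenced more deeply, and these cannot be told apart.

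Set in order over the 4 groups, neighbouring groups overlapped for Pax3, Lbx1, Eya1, Hgf and Myog at every step. Hand2_del stood above the next group, Tbx3_del, without overlap for Met and for Myf5. The share of all genes was not computed for this pair of groups, which differ in stage, Cre, depth and allele. Tbx3_del stood above the next group, Tbx3_WT, without overlap for Pax7 and the untested Myod1, as it did for 10.5% of all genes tested. Pax7, Lbx1 and Hgf had lower means in both groups of the older Hand2 series than in both groups of the Tbx3 series, for Pax7 0.919 and 0.756 CPM in Hand2_del and Hand2_WT libraries, against 2.82 and 1.46 CPM in Tbx3_del and Tbx3_WT libraries, though libraries of the series overlapped for each of the 3.

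Within groups, the members did not vary as 1 block. Over the 36 pairs of members, the median Pearson correlation of log2 CPM deviations from the group means was 0.17 over 12 libraries, and 7 pairs reached 0.5. These are descriptions of 12 libraries that share dissection and depth within a group. Myod1 and Myog went together (r = 0.96, and 0.84 without Hand2_WT replicate 2), as did Myog and Actc1 (0.95, and 0.89 without it). Myf5 followed Myog with all libraries (0.80) but hardly without that library (0.32), and followed Dmrt2 either way (0.78, and 0.73 without it). Pax3 went with Lbx1 (0.64, and 0.82 without it) and Met with Eya1 (0.66, and 0.74 without it), Myod1 (0.69, and 0.60 without it) and Myog (0.67, and 0.55 without it). Lbx1 and Met had -0.03, and 0.29 without it, and Myf5 and Myod1 had 0.71, and -0.01 without it. Among the members Hgf, the mesenchymal gene, had its lowest correlation with Myod1 (-0.61, and -0.58 without it).

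**Figure D5:**
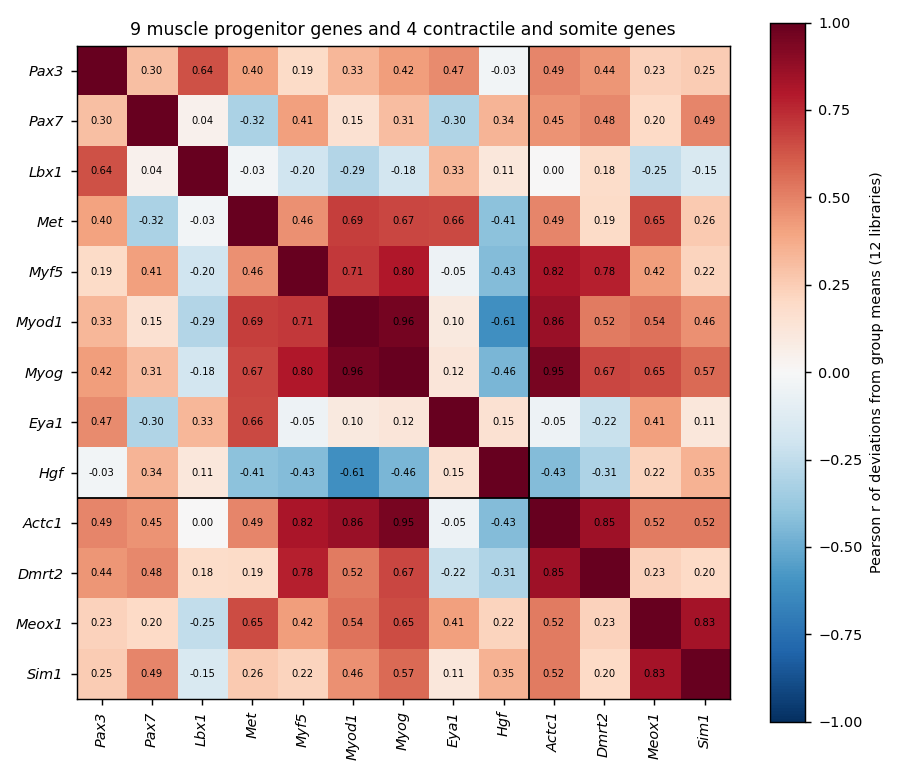
Pearson correlation (colour, from -1 to 1) of deviations from the group mean of log2 CPM over 12 libraries, for the 9 genes and 4 contractile and somite genes. Myf5, Myod1, Myog and Actc1 form a block of high values with r of 0.71 to 0.96, in which that of Myf5 with Myod1 is -0.01 without Hand2_WT replicate 2. Pax3 goes with Lbx1 at 0.64.

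Among 10821 genes with a mean of at least 5 CPM, those most like Lbx1 by this measure were Crmp1 (r = 0.96), Ap4e1 (0.95) and Sp5 (0.95). Those most like Pax3 were March5 (0.89), B3galnt1 (0.87) and Dffb (0.87). For Met they were Ccpg1 (0.89), the epithelial adhesion gene Epcam (0.88) and Rpain (0.87), and for Hgf Psma1 (0.98), Sumo2 (0.97) and Akirin1 (0.96). None of these 12 genes is another member. They were picked as the highest of 10821 values over 12 libraries, so high r follows in part from the picking. A shared regulation was not tested.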

How the data were processed

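Per the submitters' processing notes, FastQC 0.11.4, STAR 2.5.2 and RSEM 1.3.0 were used on mm10; per the labels, reads were 85 bp, single-end. The authors deposited 1 RSEM expected count per Ensembl gene and library, not normalised; the strand setting is not given in the sources used here. Expected counts were rounded. Symbols and merged exon lengths came from GENCODE M21 (GRCm38), which named 53274 of 53465 genes. For each series the mutant and wild-type libraries were fitted together (edgeR 4.0.16, R 4.3.3, TMM scaling, filterByExpr with minimum count 10 and minimum total 15, quasi-likelihood F test, Benjamini-Hochberg adjustment over all genes tested, fold change prior count 0.125). The difference of effects and the comparison of wild types came from a 4-group fit of 12 libraries. Correlations used log2 CPM with a prior count of 2. The script was tested on simulated data. Alternatives were RLE scaling, no filter, DESeq2 1.42.0, sex as covariate, a replicate block, thinning and leaving out each library. Same-numbered libraries did not deviate together (r of -0.13 to 0.14), so they were not treated as pairs. Each replicate is 1 embryo's pair of buds. PCR reads carry no molecular identifiers, so counting intervals cover counting error only. The members, lists and named genes (all members, called list genes and the first 4 of a list) were chosen with earlier results of these data known. A gene that the rule names is not reported here, and counts over lists include it.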

Additional observations from a re-analysis of the deposited data

Results flagged for a closer look

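Of the targeted genes and marker lists, 2 genes differed between the Hand2 and the Tbx3 effect in the fit of all 12 libraries, against 1.68% of all genes tested. Hand2 had a difference of Hand2 minus Tbx3 effect of -6.55 on the log2 scale (adjusted p = 0.000435). It is the gene targeted in the Hand2 series, so the design set this difference. Its log2 fold change was -7.01 in Hand2_del and -0.46 in libraries labelled Tbx3_del, the latter not called (adjusted p = 0.153). Prrx2, a homeobox gene of limb mesenchyme, had a difference of 0.71 (adjusted p = 0.00994). Its log2 fold change was 0.53 in Hand2_del and -0.18 in libraries labelled Tbx3_del, the latter not called (adjusted p = 0.18). No muscle progenitor gene met this test.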

How the results depend on the processing

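For Tbx3_del against Tbx3_WT, 153 genes were called, against 152 with RLE scaling, 504 with no low-count filter, 551 with DESeq2, 422 in the 4-group fit, 22 with sex as covariate and 23 to 220 without 1 library. Of the members 0 were called, against 2 with no filter (Myod1 and Myog), 1 with DESeq2 and 0 to 1 without 1 library. With sex as covariate Lbx1 and Eya1 changed sign, to 0.03 and 0.02. For Hand2_del against Hand2_WT, 1836 genes were called, against 3475 with DESeq2, 526 with sex, 1223 with thinned libraries and 218 to 2223 without 1 library. Of the members 0 were called, against 3 with DESeq2, 1 with sex (Eya1, adjusted p = 0.0473) and 0 to 2 without 1 library. The log2 fold changes without 1 library ran from -0.07 to 3.56 for Myod1 and from -0.01 to 0.28 for Hgf. For the difference of effects, 292 genes were called, against 859 with DESeq2 and 123 to 336 without 1 library, and no member in any of these. Hgf changed sign with no filter (-0.0012) and with sex (-0.01). Without 1 library the difference ran from -0.28 to 0.88 for Myf5, from -3.03 to 0.57 for Myod1, from -2.61 to 2.18 for Myog and from -0.15 to 0.15 for Hgf. Between the wild types 360 genes were called, against 1176 with DESeq2, 77 with sex, 123 in a fit of the 6 wild-type libraries and 57 to 359 without 1 library. Of the members 1 was called, Lbx1, against 2 with DESeq2, 0 with sex, 0 in the fit of 6 and 0 to 1 without 1 library. Without 1 library Met ran from -0.0045 to 0.20, Myf5 from -0.10 to 1.06 and Myog from -1.47 to 3.32. The causes of these changes were not tested.

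With the replicate number as a block, 87 genes were called for Tbx3_del, 161 for Hand2_del, 167 for the difference and 101 between the wild types, and 0 members in each. The correlation of same-numbered libraries' deviations was -0.01 to 0.03 for Tbx3, -0.13 to 0.04 for Hand2 and 0.0 to 0.14 for the wild types. These values give no sign of pairing by number, but they cannot exclude that same-numbered libraries share a step.

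The depth limits Myod1, which had 4 counts in all 3 Tbx3_WT libraries together, and 3 libraries a group limit every result on Myf5, Myod1 and Myog.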
